A study of Arabidopsis thaliana with 14 samples.

Results

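Seedlings of Arabidopsis thaliana that carry 35S:YFP-AFL1 were compared after transfer to low water potential and after transfer to control medium. The comparison holds 6 of the 14 arrays of the series, chosen by their titles, with 3 arrays of 35S-AFL1 at low water potential and 3 arrays of 35S-AFL1 on control medium. The remaining 8 arrays are wild-type Col-0 seedlings, 4 at low water potential and 4 on control medium. All arrays measured total RNA of whole seedlings, 7 days old at transfer and collected 10 h later. Low water potential was -1.2 MPa, set by high molecular weight polyethylene glycol in the agar, and control seedlings moved to fresh plates of the same diluted Murashige-Skoog medium, all under continuous light. Both 35S-AFL1 groups share the transgene and the Col-0 background. The transgene puts At14a-Like1 (AFL1, AT3G28270) fused to yellow fluorescent protein under 35S, a viral promoter that is active in most plant tissues. The labels name no line, so that the number of independent transformants is unknown. They also do not say whether replicates came from separate cultures, so that the p-values may rest on technical spread alone.

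Polyethylene glycol lowers the water potential around the root without entering the cell wall space, so that the seedling loses water to its medium. Plants respond by making abscisic acid (ABA), which binds PYR/PYL receptors, blocks clade A protein phosphatases and so frees SnRK2 kinases to act on transcription factors and channels. Growth slows, solutes such as proline and raffinose build up, and protective proteins are made in leaf and root alike. AFL1 is a peripheral membrane protein related to At14a, studied for its part in growth and proline content under low water potential.

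Levels below are log2 processed signal relative to the 75th percentile of the same array, so that 0 is the level of a fairly bright spot and each unit is a factor of 2. Levels of different genes come from different probes and are not set against each other. A gene was called at an adjusted p under 0.05 (limma, Benjamini-Hochberg adjustment over all 18307 genes tested). The 75th percentile of the signal was 1043 to 1287 on the stressed arrays and 1401 to 1467 on the control arrays, and 59.5% to 63.8% of spots were well above background on these 6 arrays. Correlations over genes were 0.985 to 0.989 between stressed arrays, 0.983 to 0.988 between control arrays and 0.729 to 0.758 across the treatments. All 3 stressed arrays lay on 1 slide and all 3 control arrays on another, so that slide and treatment cannot be told apart within 35S-AFL1. Each of these slides also held 1 wild-type array of the same treatment. Only 1 slide of the series held both treatments, with 1 wild-type array of each, and it was scanned on another day. Fits with the slide as a block rest on the wild-type arrays. A fixed block takes its treatment difference from that 1 pair, joined to 35S-AFL1 through the wild-type arrays on its slides. Values of the block fits stand beside a named gene where they end its call or move its size by over 1.5 times. For gene lists, many of the counts that they moved stand in the text or together near the end, but not all.

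The response was broad. Of 18307 genes, 11592 were called (63.3%), 5502 of them higher (30.1%) and 6090 lower (33.3%) at low water potential. At least 2-fold changes were called in 6856 genes (37.5%). Changes of at least 4-fold were called for 1237 genes with higher levels (6.76%) and 1840 with lower levels (10.1%), and changes of at least 32-fold for 187 and 156 genes. With dim genes counted at their bound, 1053 and 1470 genes passed 4-fold, and 127 and 77 genes 32-fold. The median log2 fold change over all genes was -0.04, with quartiles at -0.85 and 0.63, and the typical standard error was 0.20. The arrays of both treatments did not overlap for 14009 genes (76.5%). For 501 genes no probe was well above background on any control array while the gene was above it on all 3 stressed arrays, and for 758 genes the reverse held. Blocking on the slide left 6565 calls, 2900 higher and 3665 lower. The shares above are the background against which each gene group below is read.

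By fitted difference, in which a dim group enters at its own signal, the 12 genes with a symbol that rose most were LTP4, GASA3, ATHSP22.0, CSLG2, HSP17.4, LEA7, LEA4-5, RAP2.6, HAI2, ChlAKR, GLYI7 and LTP3. Since 9 of them were not well above background on control arrays and have only a bound, their order among themselves and against measured rises, such as SAG29 at 8.64, is not established. RAP2.6, an ERF transcription factor, had log2 levels of 3.40, 3.19 and 3.25 on the stressed arrays and was not well above background on any control array. It was at least 146-fold higher under stress (adjusted p = 7.26e-10). GASA3, a small cysteine-rich peptide of the gibberellin-regulated GASA family, stood at 4.04, 4.38 and 4.21 on the stressed arrays, at least 278-fold above control arrays that were not well above background (adjusted p = 1.40e-10). ChlAKR, a chloroplast aldo-keto reductase that detoxifies reactive carbonyls, and GLYI7, of the glyoxalase I family, were at least 106-fold and at least 183-fold higher (adjusted p = 9.75e-11 and 1.22e-08). CSLG2, a cellulose synthase-like protein, was at least 168-fold higher (adjusted p = 3.56e-09). These genes were thus near the limit of detection in control seedlings and readily measured in stressed ones.

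By the same fitted difference the 12 genes that fell most were GER1 (AT1G72610), LHCB2.3, EXPA8, RAV1, SAUR19, HBI1, SAUR63, EXO, RL4, PHI-1, PnsL3 and BT5, of which 8 have only a bound, so that their order is likewise not established. EXO, an extracellular protein that promotes cell expansion, had log2 levels of -2.54, -2.50 and -2.73 on the stressed arrays and 3.89, 4.75 and 4.70 on the control arrays. The groups were far apart, and the fold change was -7.03 ± 0.57 (SE, log2, adjusted p = 1.98e-07). PHI-1, a relative of EXO, was at least 28.3-fold lower and not well above background on any stressed array (adjusted p = 2.26e-05). RAV1, a B3-domain factor of growth control, was at least 89.5-fold lower (adjusted p = 5.37e-07). RL4, a small MYB of the RADIALIS-like group, was at least 29.3-fold lower (adjusted p = 6.33e-10). BT5, a BTB and TAZ domain protein, had stressed levels of -3.85, -3.60 and -3.07 and control levels of 3.12, 3.46 and 3.19. Its log2 fold change was -6.76 ± 1.1 (adjusted p = 1.29e-04). Blocking on the slide gave -2.36 and ended the call (adjusted p = 0.078).

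AT3G28270 had 3 probes, each of which reads the endogenous gene and, if it lies within the coding sequence, the transgene. Probe positions were not analysed here. On the brightest probe, log2 levels were 4.05, 4.08 and 3.82 on stressed 35S-AFL1 arrays and 2.45, 2.51 and 2.08 on control 35S-AFL1 arrays. AT3G28270 thus rose under stress on top of a high control level, by 1.64 ± 0.28 (SE, log2, adjusted p = 1.92e-04), and by 3.17 with the slide as a block. The other probes gave 1.85 and 1.56. In wild type it stood at 3.47, 3.79, 3.33 and 4.08 on stressed arrays and at 0.66, 0.04, -0.41 and -0.55 on control arrays, a change of 3.73. The stressed arrays of both genotypes overlapped, whereas every control array of 35S-AFL1 lay above every wild-type control array. The stress response was smaller in 35S-AFL1 by 2.09 (log2), which was not called over all genes (unadjusted p = 8.19e-05, adjusted p = 0.155). AT14A, the gene after which AFL1 is named, had log2 levels of -2.47, -2.07 and -1.79 under stress and -1.33, -1.44 and -1.50 on control arrays, a fall of 0.69 (adjusted p = 0.0235). Blocking on the slide, its change was 0.32 and not called (adjusted p = 0.602). The call of AT14A also ended under a random slide block, quantile normalization and without control replicate 1 or low water potential replicate 1 of 35S-AFL1 (adjusted p = 0.0588 to 0.454).

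ABA synthesis genes rose and receptor genes fell. Of 9 ABA synthesis genes tested, 6 were higher and none lower, with a median log2 fold change of 1.79, or 0.93 with the 3 dim members at their bound. NCED3, the stress-induced dioxygenase that cleaves carotenoids on the way to ABA, had log2 levels of 5.04, 4.87 and 4.67 under stress and -2.42, -2.85 and -2.96 on control arrays. The separation was complete, with a fold change of 7.60 ± 0.26 (SE, log2, adjusted p = 8.43e-11). ABA3, which activates the molybdenum cofactor that the last step of ABA synthesis needs, was at least 2.78-fold higher (adjusted p = 1.05e-06). Genes of ABA removal rose as well: CYP707A1 and CYP707A4, both ABA 8'-hydroxylases, were at least 35.0-fold and at least 6.09-fold higher (adjusted p = 1.56e-08 and 1.53e-05). The exporter ABCG25 rose by 1.87 (log2) and the importer NRT1:2 fell by 1.01.

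Of 9 receptor genes tested, 8 were lower and none higher, with a median of -1.89. PYL5 had log2 levels of -0.83, -0.85 and -0.92 under stress and 3.34, 3.48 and 3.40 on control arrays, 2 tight and separate groups, and its fold change was -4.27 ± 0.22 (adjusted p = 2.88e-09). PYL4 and PYL6 were at least 15.7-fold and at least 3.69-fold lower and were not well above background on the stressed arrays (adjusted p = 7.43e-09 and 1.18e-08). RCAR3 fell by 3.15 (adjusted p = 1.17e-06). All 9 clade A phosphatase genes were higher, each at least 4-fold, with a median of 4.78, or 3.68 with 4 members at their bound. HAI1 had levels of 4.23, 4.21 and 4.00 under stress and was not well above background on control arrays, so that it was at least 260-fold higher under stress (adjusted p = 8.62e-12). AHG1, which acts in seeds, was at least 10.8-fold higher in these stressed seedlings (adjusted p = 3.05e-10).

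Kinase genes of the pathway were divided. Of 10 SnRK2 genes, 4 were higher and 3 lower. SNRK2.7 rose by 3.42 ± 0.25 (SE, log2, adjusted p = 6.99e-08), with 0.39, 0.60 and 0.41 on the stressed arrays against -2.74, -3.07 and -3.07 on the control arrays. SNRK2.5 fell by 2.09 (adjusted p = 6.71e-06). MAPKKK18, the ABA-induced kinase at the head of a MAP kinase cascade, was at least 17.7-fold higher (adjusted p = 2.77e-08), and MPK7, at the end of that cascade, rose by 2.14 (adjusted p = 8.81e-07). Among 10 ubiquitin ligases of ABA signalling, 6 were higher and 1 was lower. The RING ligase AIRP2 had levels of 3.50, 3.94 and 3.83 under stress and -0.89, -0.89 and -1.30 on control arrays, a rise of 4.78 (adjusted p = 6.22e-11). PUB19 was at least 86.6-fold higher (adjusted p = 4.33e-07), while PUB22, another U-box ligase that dampens drought responses, fell by 3.44 (adjusted p = 7.89e-04).

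**Figure D1:**
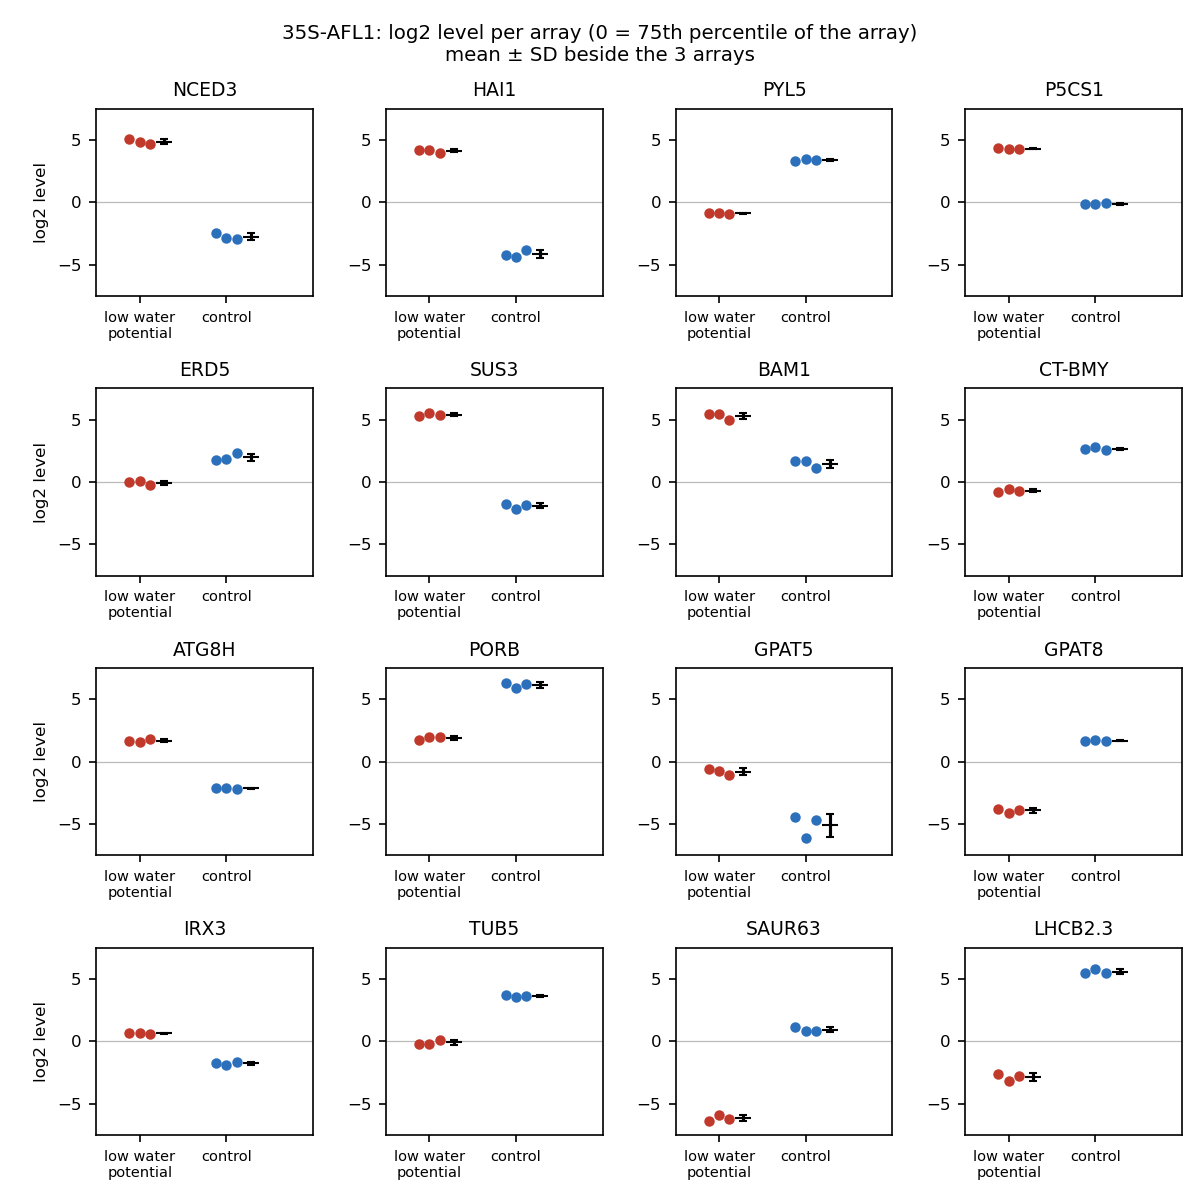
Log2 level on each 35S-AFL1 array (vertical axis, 0 is the 75th percentile of the array) for 16 genes, with the 3 low water potential arrays at left and the 3 control arrays at right, and the mean ± SD beside them. In all 16 panels the arrays of both treatments are apart; HAI1 and GPAT5 were not well above background on control arrays, nor SAUR63 on stressed arrays.

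Of 33 ABA and drought transcription factors tested, 25 were higher and 2 lower, with a median of 2.38 (1.79 with bounds). NAC032 had log2 levels of 3.40, 3.38 and 3.24 under stress and -1.68, -1.76 and -2.22 on control arrays, and HB-12, a homeodomain-leucine zipper factor that slows growth, 2.99, 3.08 and 2.94 against -2.23, -2.64 and -2.37. Neither overlapped, and the fold changes were 5.23 ± 0.22 and 5.42 ± 0.18 (SE, log2, adjusted p = 4.22e-10 and 4.91e-11). CBF1, best known from the cold response, fell instead by 2.01 (adjusted p = 2.28e-07), at 1.2, 1.43 and 0.96 under stress against 3.45, 3.16 and 3.01. Over the NAC family as a whole, 25 of 59 genes were higher and 8 lower. Over R2R3 MYB genes, 34 of 75 were higher and 25 lower, and MYB112 rose by 5.71 (adjusted p = 2.08e-11). In the homeobox family the count ran the other way, with 11 of 38 higher and 23 lower, among them ATHB13, which fell by 4.37 (adjusted p = 6.39e-09). TCP factors, many of which control cell division in leaves, had 12 of 18 lower and 3 higher, as with TCP15, which fell by 2.14 (adjusted p = 1.98e-07).

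Protective proteins rose with few exceptions. Of 27 dehydrins, LEA proteins and dehydration markers, 26 were higher, 24 of them at least 4-fold, and none was lower, with a median of 3.94. LTI78, also called RD29A, had log2 levels of 5.62, 5.47 and 5.38 under stress and -1.06, -1.75 and -1.88 on control arrays, a rise of 7.06 ± 0.23 (SE, adjusted p = 4.74e-11). RAB18 (AT5G66400), a dehydrin, had 7.47, 7.71 and 7.81 under stress against 4.79, 4.90 and 4.81 on control arrays, where it was already bright, a rise of 2.83 (adjusted p = 3.73e-08). These values come from the brightest of 4 RAB18 probes, and the other 3 gave larger rises of 6.46, 7.06 and 5.53. LTI65, also called RD29B, had 5.44, 5.56 and 5.33 under stress against -0.75, 0.70 and 0.16 on control arrays, where it varied more, and rose by 5.41 ± 0.75 (adjusted p = 3.03e-05). LEA4-5 was at least 270-fold higher (adjusted p = 1.10e-11).

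Heat shock proteins, chaperones that hold unfolded proteins, rose in 16 of 17 genes, with a median of 2.79. ATHSP22.0, of the endomembrane system, was at least 222-fold higher, HSP17.6A at least 174-fold and the chloroplast protein HSP21 at least 57.1-fold (adjusted p = 9.00e-11, 1.27e-10 and 7.02e-10). Their transcription factors were divided, with 5 of 9 listed heat shock factors higher and 3 lower. HSFA6A had log2 levels of 3.19, 3.07 and 3.20 under stress against -1.42, -1.48 and -1.36 on control arrays, a rise of 4.57 ± 0.20 (adjusted p = 6.33e-10). HSFA1E was at least 7.67-fold higher (adjusted p = 1.74e-09). HSFA3 was at least 16.6-fold lower and not well above background on any stressed array (adjusted p = 9.54e-08). The ER folding list moved less, with 11 of 17 genes higher and none lower at a median of 0.74, and 1 gene above 4-fold, the co-chaperone ATERDJ3A, which rose by 2.61 (adjusted p = 8.90e-06). Blocking on the slide left 1 ER folding gene called higher and 3 called lower.

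Proline genes were divided and sucrose and raffinose genes leaned higher. P5CS1, the first enzyme of proline synthesis, had log2 levels of 4.32, 4.28 and 4.31 under stress and -0.16, -0.15 and -0.03 on control arrays, with hardly any spread within a group, and rose by 4.42 ± 0.19 (SE, adjusted p = 6.26e-10). ERD5, the proline dehydrogenase ProDH1, stood at 0.00, 0.07 and -0.24 against 1.78, 1.84 and 2.31 and fell by 2.03 (adjusted p = 0.00102), or by 4.22 with the slide as a block. DELTA-OAT and ALDH12A1, enzymes of ornithine and proline turnover, rose by 2.48 and 2.63 (adjusted p = 7.97e-09 and 6.63e-09). In all, 5 of 10 proline genes were higher and 4 lower.

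Of 20 raffinose, sucrose and invertase genes, 13 were higher and 4 lower, with a median of 1.96 (1.66 with bounds). SUS3, a sucrose synthase, had levels of 5.32, 5.51 and 5.36 under stress against -1.73, -2.12 and -1.86 on control arrays, a rise of 7.30 ± 0.16 (adjusted p = 5.68e-12). SPS2F, a sucrose phosphate synthase, rose by 4.71 (adjusted p = 4.49e-09), and GolS2, a galactinol synthase, was at least 40.0-fold higher (adjusted p = 3.82e-08). DIN10, of the raffinose synthase family and induced by darkness, ran against them at 0.02, -0.18 and -0.15 under stress and 4.76, 5.09 and 5.12 on control arrays, a fall of 5.09 (adjusted p = 4.56e-06). Sugar transporters were divided, with 9 of 21 higher and 8 lower. The efflux carrier SWEET4 was at least 57.7-fold higher (adjusted p = 2.89e-11), while the sucrose importer SUC1 was at least 22.6-fold lower (adjusted p = 8.33e-09).

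Starch genes showed the same division within each list. Of 15 starch breakdown genes, 4 were higher and 8 lower. BAM1 (AT3G23920), a chloroplast beta-amylase, had log2 levels of 5.48, 5.44 and 5.0 under stress against 1.65, 1.67 and 1.11 on control arrays, and rose by 3.83 ± 0.18 (adjusted p = 1.16e-09). CT-BMY, the chloroplast beta-amylase of nightly starch breakdown, moved the opposite way, at -0.77, -0.58 and -0.73 against 2.61, 2.78 and 2.58, a fall of 3.35 (adjusted p = 2.05e-06), or 1.69 with the slide as a block. In starch synthesis, 2 of 9 genes were higher and 5 lower. The large subunits of ADP-glucose pyrophosphorylase went apart, with APL3 up by 4.21 and APL1 down, a fall of 2.93 (adjusted p = 1.22e-07 and 2.00e-08).

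Genes of cell content recycling rose modestly and together. Of 29 autophagy genes tested, 22 were higher and 1 lower, with a median of 0.96, but only 2 passed 4-fold. ATG8H, a ubiquitin-like protein that joins the autophagosome membrane, had log2 levels of 1.68, 1.60 and 1.80 under stress and -2.12, -2.09 and -2.20 on control arrays, clearly apart, and rose by 3.83 ± 0.12 (SE, adjusted p = 3.59e-11). Its relatives APG8A and ATG8G rose by 2.1 and 1.43, and ATG18H, which binds membrane lipids, by 1.96 (adjusted p = 3.38e-08, 6.37e-05 and 3.28e-07). ATG8E was the single lower member, at 1.29, 1.28 and 1.48 against 2.48, 2.54 and 2.83, a fall of 1.27 (adjusted p = 0.00574). That call ended with the slide as a block, where the change was 0.24 (adjusted p = 0.633) and 13 autophagy genes were called higher. In the list of carbon starvation and branched-chain amino acid breakdown, 11 of 20 genes were higher and 6 lower, with a median of 1.33. MGL, a methionine gamma-lyase, and PPDK, pyruvate orthophosphate dikinase, rose by 3.73 and 3.42 (adjusted p = 7.83e-09 and 1.53e-08). SEN1 (AT4G35770), a dark-induced gene, fell by 4.26 ± 1.08 (adjusted p = 0.00374), but by 0.44 when the slide was a block (adjusted p = 0.654).

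Photosynthesis genes fell almost as a whole. Of 48 genes of the photosystems and light harvesting, 47 were lower and 1 was higher, with a median of -2.03. LHCA1, an antenna protein of photosystem I, had log2 levels of 5.37, 5.31 and 5.10 under stress against 7.33, 7.42 and 7.40 on control arrays, a fall of 2.12 ± 0.18 (SE, adjusted p = 3.19e-07). LHCB2.3, a photosystem II antenna protein, ran far lower, at -2.59, -3.19 and -2.76 against 5.52, 5.81 and 5.47, a fall of 8.44 ± 1.01 (adjusted p = 8.00e-06). Its size depended on the fit, at -2.68 with the slide as a block (adjusted p = 0.010), and the cause was not tested. PnsL3, a lumenal subunit of the chloroplast NDH complex, was at least 23.4-fold lower and not well above background on the stressed arrays (adjusted p = 3.41e-11). The exception was AT1G76570, which rose by 0.62 (adjusted p = 0.00578), or by 1.26 with the slide as a block.

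Of 21 Calvin cycle genes, 20 were lower and 1 was higher, with a median of -2.26, and 12 of 12 photorespiration genes were lower, with a median of -1.25. Blocking on the slide left 12 Calvin cycle and 5 photorespiration genes called lower, with medians of -1.23 and -0.89. The Calvin cycle enzymes GAPA-2, a glyceraldehyde phosphate dehydrogenase, and HCEF1, a fructose bisphosphatase, fell by 3.78 and 3.70 (adjusted p = 1.03e-07 and 2.14e-07), or by 2.25 and 2.12 with the slide as a block. Chlorophyll synthesis had 22 of 25 genes lower and none higher, with a median of -2.03, and 14 lower with the slide as a block. PORB, which makes chlorophyllide in the light, had levels of 1.73, 2.00 and 1.97 under stress and 6.28, 5.91 and 6.25 on control arrays, a fall of 4.25 ± 0.21 (adjusted p = 1.75e-09). PORA was at least 6.82-fold lower (adjusted p = 5.15e-10), and CHLI2, a magnesium chelatase subunit, fell by 3.09 (adjusted p = 8.54e-09). In chlorophyll breakdown 7 of 12 genes were higher and 3 lower. NYE1, which takes magnesium out of chlorophyll, had levels of 0.50, 0.50 and 0.39 under stress against -2.26, -2.13 and -2.56, a rise of 2.78 (adjusted p = 1.55e-08).

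Shoot markers moved with these groups. All 5 leaf mesophyll and shoot markers were lower, with a mean log2 level of 3.90 to 4.16 on the stressed arrays against 5.88 to 5.97 on the control arrays, as with the carbonic anhydrase CA1, which fell by 3.28 on its brightest probe (adjusted p = 2.22e-08) and by more on its others, where log2 changes ran to -7.85. Of 10 stomatal lineage and guard cell markers that passed the filter, out of 13 listed, 9 were lower and none higher, at mean levels of -4.22 to -3.87 against -2.21 to -1.83. Of these 10 markers, 5 have only a bound, so that the mean levels include dim signal. The median log2 fold change of the 10 was -2.29, or -1.38 with the dim members at their bound. Of 3 epidermis markers 2 were lower, and their mean level was 2.82 to 2.95 against 3.54 to 3.61. Root markers moved less in sum, but their levels were low. Of 8 root hair markers 3, and of 10 endodermis markers 1, were not well above background in at least 1 treatment. Endodermis markers ran from -2.78 to -2.17 under stress and from -2.37 to -1.87 on control arrays, with 1 of 10 higher and 3 lower, and root hair markers from -3.26 to -2.64 against -3.19 to -2.61, with 2 of 8 higher and 2 lower. Of 5 root meristem markers only 2 passed the filter, and 1 of these was lower. The slide block left 2 leaf, 6 stomatal and no epidermis markers called lower. The RNA thus held both shoot and root markers, as the label of whole seedlings says. In whole seedlings, fewer cells of a type and less RNA per cell cannot be told apart, and the part of the shoot share in the photosynthesis results was not tested.

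Suberin, the polymer that seals root endodermis and wounded tissue, had 7 of 10 synthesis genes higher and none lower, with a median of 1.75. GPAT5, an acyltransferase of suberin monomers, had log2 levels of -0.56, -0.76 and -1.05 under stress and was not well above background on control arrays, at least 8.70-fold higher (adjusted p = 3.97e-07). RWP1, the feruloyl transferase of suberin, had 2.49, 2.44 and 2.16 against -1.06, -1.75 and -1.19 and rose by 3.70 ± 0.23 (SE, adjusted p = 1.85e-08). The transporter ABCG6 and the hydroxylase CYP86B1 rose by 3.31 and 2.63 (adjusted p = 5.88e-07 and 2.07e-05).

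Cutin, the polymer of the shoot cuticle, had 8 of 10 synthesis genes lower and none higher, with a median of -1.31 (-1.14 with bounds), and 5 lower with the slide as a block. GPAT8, the acyltransferase of cutin and a relative of GPAT5, was at -3.75, -4.08 and -3.87 under stress and at 1.64, 1.71 and 1.67 on control arrays. The groups were apart by over 5 log2 units at a fold change of -5.58 ± 0.18 (adjusted p = 5.81e-11). PEL3 and LACS2, of cutin assembly and monomer activation, fell by 2.12 and 1.63 (adjusted p = 8.30e-07 and 8.71e-05). Wax genes had 9 of 17 higher and 2 lower. KCS2, an elongase of very long chain fatty acids that serves wax and suberin, had 4.26, 4.16 and 4.12 against -1.95, -2.97 and -1.58, a rise of 6.35 (adjusted p = 5.87e-09), and CER1, of alkane synthesis, rose by 3.83 (adjusted p = 2.38e-06). LACS1 fell by 2.32 (adjusted p = 3.60e-08). Plastid fatty acid synthesis and desaturation, the source of thylakoid lipids, had 12 of 20 genes lower and none higher, at a median of -0.71. The slide block gave 11 lower and 3 higher, at a median of -1.38. FAD5, a chloroplast desaturase, stood at -0.18, 0.04 and -0.02 against 4.11, 3.92 and 3.87, a fall of 4.02 (adjusted p = 8.26e-11).

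**Figure D2:**
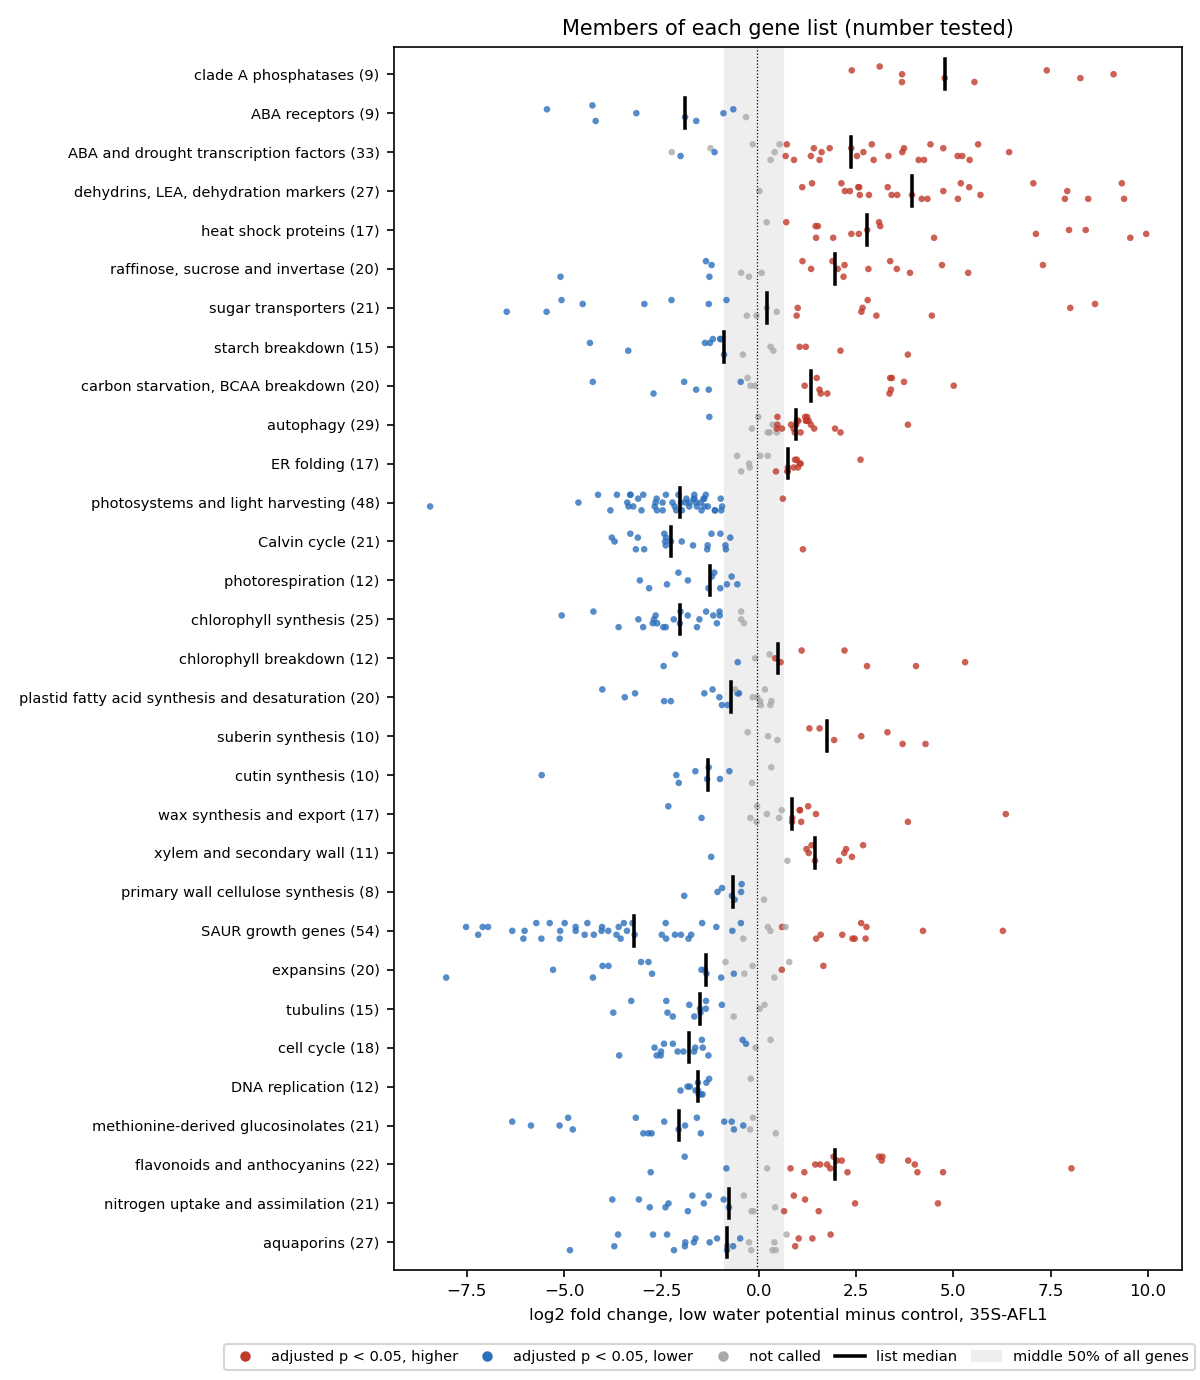
Log2 fold change (low water potential minus control, horizontal axis) of every tested member of 31 gene lists in 35S-AFL1, with red points called higher, blue points called lower, grey points not called and a bar at the list median. The grey band spans the quartiles of all genes, -0.85 to 0.63; the suberin median lies right of it and the cutin median left of it, and the SAUR median of -3.22 becomes -1.67 with dim members at their bound.

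Genes of auxin-driven cell expansion were mostly lower. SAUR genes, small early auxin response genes that promote expansion, had 39 of 54 tested members lower and 11 higher, at a median of -3.22. Of these members 24 have only a bound, and with them at their bound the median was -1.67 and 22 genes were at least 4-fold lower, against 32 by fitted values. The family has 80 named members, of which 74 had a probe and 54 passed the filter on dim probes, so that the count covers the detectable members. SAUR63 had log2 levels of 1.15, 0.82 and 0.86 on control arrays and was not well above background under stress, at least 29.2-fold lower (adjusted p = 2.87e-09). SAUR19 and AT4G38860 were at least 43.0-fold and at least 39.8-fold lower (adjusted p = 1.15e-08 and 1.59e-10). AT4G12410 was the largest exception, at 3.11, 2.88 and 2.81 under stress against -3.89, -3.89 and -2.24, a rise of 6.27 ± 0.38 (adjusted p = 1.09e-08). The family matched by Aux/IAA names, repressors of auxin signalling, had 15 of 24 members lower and 4 higher, or 6 and 2 with the slide as a block. IAA19 was at least 6.05-fold lower and IAA28 rose by 1.44 (adjusted p = 2.09e-07 and 5.29e-06).

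Of 13 brassinosteroid genes, 8 were lower and 1 higher, and the small bHLH proteins PRE1 and PRE5, which promote elongation, were at least 6.37-fold and at least 2.42-fold lower (adjusted p = 8.76e-09 and 6.67e-09). Type-A response regulators, which report cytokinin, were lower in 7 of 8, and in 2 of 8 with the slide as a block. An example is ARR4, with -0.08, 0.00 and -0.15 under stress against 1.87, 1.60 and 1.85, a fall of 1.85 (adjusted p = 1.77e-06). Gibberellin genes were evenly divided, 5 of 13 higher and 5 lower. GA20OX1, of gibberellin synthesis, fell by 3.09, while the receptor GID1B rose by 1.82 (adjusted p = 4.14e-06 and 5.71e-08).

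Wall-loosening proteins fell. Of 20 expansins, 13 were lower and 2 higher, and of 21 xyloglucan endotransglucosylases, 12 were lower and 2 higher. EXPA6 had log2 levels of -1.55, -1.28 and -1.28 under stress against 4.03, 3.88 and 3.83 on control arrays, a fall of 5.28 ± 0.13 (SE, adjusted p = 7.39e-12), and XTH4 had 0.30, 0.32 and 0.43 against 5.34, 5.56 and 5.37, a fall of 5.07 ± 0.15 (adjusted p = 2.89e-11). Both separations were many times the spread within a group. XTH6 and XTH16 were at least 17.5-fold and at least 14.3-fold lower (adjusted p = 8.43e-11 and 1.30e-10), while EXPA16 rose by 1.66 (adjusted p = 6.81e-05), against 0.59 on its other probe. Fasciclin-like arabinogalactan proteins, wall glycoproteins, were lower in 12 of 17 and higher in 4, as in FLA9, at -1.38, -1.35 and -1.19 against 4.86, 5.07 and 4.93, a fall of 6.26 (adjusted p = 6.52e-10). AGP2 rose against its family by 5.33 (adjusted p = 3.33e-10), where 13 of 27 arabinogalactan proteins were lower and 4 higher.

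Of 8 genes of primary wall cellulose synthesis, 7 were lower and none higher, none of them by 4-fold, with a median of -0.65. CESA2, a cellulose synthase of expanding cells, had log2 levels of -1.27, -0.96 and -0.78 under stress against 0.96, 0.89 and 0.88, a fall of 1.92 ± 0.17 (SE, adjusted p = 5.83e-07). Of 11 xylem and secondary wall genes, 9 were higher and 1 lower, with a median of 1.45. IRX3 and IRX1, cellulose synthases of the secondary wall, stood at 0.70, 0.64 and 0.58 against -1.75, -1.89 and -1.62, and at 1.23, 1.21 and 1.23 against -0.89, -0.79 and -1.24. They rose by 2.39 ± 0.17 and 2.20 ± 0.19 (adjusted p = 6.02e-08 and 3.13e-07). MYB46, a master switch of secondary wall formation, was at least 4.46-fold higher (adjusted p = 5.22e-08). FLA11 and FLA12, both of secondary walls, differed in direction: FLA11 rose by 1.45 and FLA12 fell by 1.22 (adjusted p = 2.30e-07 and 9.18e-06).

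Division genes fell without a called exception in these lists. Cell cycle genes were lower in 16 of 18 and DNA replication genes in 11 of 12, with medians of -1.80 (-1.65 with bounds) and -1.55, and none was higher. CYCD3;1, the cyclin that drives entry into the cycle, had log2 levels of -2.29, -2.01 and -1.95 under stress against 1.47, 1.49 and 1.56, a fall of 3.59 ± 0.13 (SE, adjusted p = 1.33e-10). CYC1BAT, a B-type cyclin of mitosis, fell by 2.62, and the replication clamp PCNA2 and the chromatin assembly subunit FAS1 fell by 1.83 and 2.01 (adjusted p = 1.91e-08, 2.11e-07 and 3.31e-08). Tubulins were lower in 12 of 15 and higher in none, with a median of -1.51. TUB5 had -0.20, -0.17 and 0.12 against 3.71, 3.59 and 3.67, a fall of 3.74 ± 0.15 (adjusted p = 2.82e-10), and TUA3 fell by 2.38 (adjusted p = 2.54e-08). Histone genes had 11 of 18 lower and 2 higher. HTA12, an H2A gene, rose by 1.79, whereas the H2A gene HTA6 fell by 1.71, or by 2.75 with the slide as a block (adjusted p = 6.90e-07 and 2.27e-05 without it). The root meristem and epidermis marker values above stand beside these counts, and their part in them was not tested.

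Of 27 aquaporins, 16 were lower and 4 higher, or 9 and 2 with the slide as a block. DELTA-TIP of the vacuole membrane fell by 4.85 (adjusted p = 1.06e-08), while PIP2;5 of the plasma membrane rose by 1.85 (adjusted p = 4.39e-04). Blocking on the slide ended the call of PIP2;5 (adjusted p = 0.207). Nitrogen uptake and assimilation had 11 of 21 genes lower and 6 higher. AMT1;2, an ammonium transporter, had log2 levels of -3.42, -3.57 and -3.51 under stress against 0.37, 0.29 and 0.13, a fall of 3.76 ± 0.22 (SE, adjusted p = 7.14e-09), or 2.22 with the slide as a block. NRT1.8, which takes nitrate back out of the xylem, was at least 4.99-fold higher (adjusted p = 1.03e-07). The glutamine synthetase GLN1.3 rose by 2.47 and the asparagine synthetase ASN2 fell by 2.80 (adjusted p = 9.23e-08 and 5.09e-07). Of 28 sulfate genes, 12 were lower and 9 higher, near the shares of all genes. Of 11 iron genes, 3 were higher, 2 lower and 6 not called. The ferritin FER2 stood at 1.09, 1.11 and 1.08 against -3.42, -3.24 and -2.85, a rise of 4.26 (adjusted p = 2.25e-09). Of the other ferritins, FER1 rose by 2.81 and FER3 fell by 1.19 (adjusted p = 4.16e-06 and 0.0121), the call of FER3 ending with either slide block.

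Methionine-derived glucosinolates, sulfur compounds of insect defence, had 18 of 21 genes lower and none higher, with a median of -2.06 (-1.90 with bounds). MYB29, their regulator, was at least 6.68-fold lower, and GSTF11, a glutathione transferase of their synthesis, at least 18.3-fold lower (adjusted p = 3.71e-09 and 1.16e-10). Flavonoid and anthocyanin genes had 18 of 22 higher and 3 lower, with a median of 1.97 (1.80 with bounds), or 10 higher and 1 lower with the slide as a block. MYB90, an activator of anthocyanin synthesis, had log2 levels of 1.79, 2.07 and 1.82 under stress and was at least 55.9-fold higher there than on control arrays, where it was not well above background (adjusted p = 1.64e-09). Its fitted log2 change was 8.03, or 5.12 with the slide as a block. MYBL2, a repressor of the same pathway, stood at -0.18, 0.09 and 0.55 against 3.16, 2.81 and 2.82 and fell by 2.78 ± 0.58 (SE, adjusted p = 9.09e-04), but with the slide as a block its change was 0.50 and not called (adjusted p = 0.474).

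Families of conjugating enzymes had more higher than lower calls. UDP-glycosyltransferases, which attach sugars to hormones and flavonoids, were higher in 32 of 54 and lower in 10, and tau glutathione transferases in 15 of 22 and lower in 4, or in 7 and 3 with the slide as a block. UGT89B1 had log2 levels of 3.54, 3.50 and 3.39 under stress against -1.54, -1.41 and -1.76, a rise of 5.04 ± 0.17 (SE, adjusted p = 5.94e-11), and UGT76E12 was at least 73.1-fold higher (adjusted p = 3.37e-11). GSTU9 rose by 5.0 and GSTU20 fell by 4.13 (adjusted p = 1.51e-07 and 2.52e-08). Cytochrome P450 enzymes were near the background, with 57 of 152 higher and 41 lower. Antioxidant enzymes had 8 of 19 higher and 6 lower. GR1, a glutathione reductase, had 4.79, 4.61 and 4.53 against 1.59, 1.80 and 1.69, a rise of 2.94 (adjusted p = 3.19e-09), and the thylakoid peroxidase TAPX fell by 1.50 (adjusted p = 8.98e-07).

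CBL-interacting protein kinases, which act with calcineurin B-like sensors on ion channels, were higher in 16 of 24 and lower in 4, with a median of 1.53 (1.11 with bounds). CIPK5 had log2 levels of 3.31, 3.38 and 3.38 under stress against -0.33, -0.62 and -0.89, a rise of 3.97 ± 0.26 (SE, adjusted p = 2.53e-08). Calcium-dependent protein kinases were higher in 2 of 24 and lower in 8, none by 4-fold, and 14 were not called. Cysteine-rich receptor kinases, many of them linked to pathogen response, were lower in 13 of 20 and higher in 5. CRK40 had -5.20, -5.64 and -3.67 against 0.33, 0.85 and 0.59, a fall of 5.42 (adjusted p = 8.82e-08). Its stressed levels were very low and spread, so that the size of its fall is uncertain.

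Salicylate signalling had 7 of 15 genes lower and 1 higher. The higher one was DMR6, an enzyme that removes salicylate, which rose by 2.96 (adjusted p = 2.95e-05), or by 5.01 with the slide as a block. PAD4, a lipase-like protein of immunity, was at least 26.6-fold lower on its brightest probe (adjusted p = 7.26e-10), while its other probes fell by 1.71 and 1.76 (log2). Jasmonate genes had 9 of 26 higher, close to the share of all genes, and 4 lower, with 13 not called, and their median of 0.31 became -0.03 with the slide as a block. CORI3, a coronatine-induced gene, had log2 levels of 5.87, 6.01 and 5.89 under stress against 0.89, 1.27 and 0.88, a rise of 4.91 ± 0.31 (SE, adjusted p = 1.89e-08). The storage protein VSP2 rose by 4.91 too (adjusted p = 1.19e-06), or 2.89 with the slide as a block. JAZ repressors of the pathway had 4 of 11 higher and 2 lower. WRKY factors, common in both pathways, had 18 of 48 higher and 13 lower, as in WRKY75, which rose by 3.47, and WRKY22, which fell by 3.71 (adjusted p = 2.19e-07 and 4.10e-05).

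**Figure D3:**
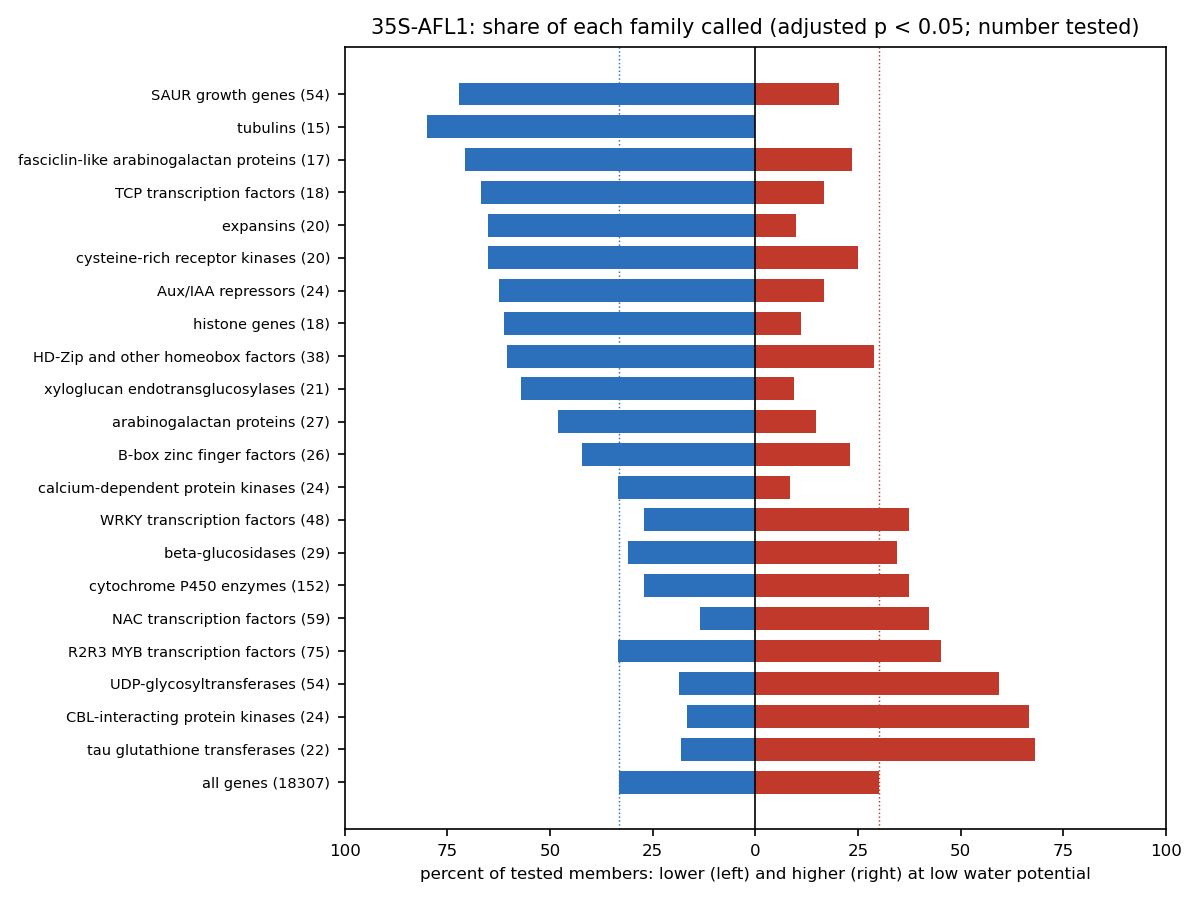
Percent of tested members of 21 gene families called lower (blue, to the left) and higher (red, to the right) at low water potential in 35S-AFL1, with all genes in the bottom row and dotted lines at its shares, 30.1% higher and 33.3% lower. Tubulins and SAUR genes extend farthest to the left, CBL-interacting protein kinases and tau glutathione transferases farthest to the right.

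Neighbouring genes with changes of at least 4-fold in the same direction formed runs. In the order of the annotation, 1 run held 6 measured genes, all lower, and 8 runs held 4, of which 6 were lower and 2 higher. These runs use fitted values. With dim genes at their bound, every member passed 4-fold in the run of 6 and in 2 of the 8 runs of 4. The run of 6 did not hold with the slide as a block. There a member lost its call (adjusted p = 0.113) and AT1G72890 changed by -1.075 (log2), less than 4-fold. There were 963 single genes and 115 pairs in the higher direction, and 1333 and 177 in the lower. The run of 6, on chromosome 1, reached from AT1G72890 to AT1G72940 and held TIR, named for the TIR domain of immune receptors. TIR had log2 levels of -4.79, -5.05 and -3.71 under stress against 1.16, 1.93 and 1.21, a fall of 5.95 ± 0.65 (SE, adjusted p = 3.42e-06). The stressed levels of TIR were very low and spread, so that the size of its fall is uncertain. AT1G72910 was at least 89.3-fold lower (adjusted p = 2.06e-05). Among the runs of 4 were SAUR63 with AT1G29430, AT1G29450 and AT1G29460. A higher run on chromosome 3 held PAP17, a purple acid phosphatase, AT3G17800, PYD1, of pyrimidine breakdown, and GLN1.3. PAP17 had 5.63, 5.71 and 5.47 under stress against 0.28, -0.25 and 0.14, a rise of 5.55 ± 0.19 (adjusted p = 9.10e-11), and PYD1 rose by 3.59 (adjusted p = 1.02e-10). Probes of near-identical tandem copies may read each other's transcripts, which was not tested.

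No gene passed the test that its stress response differed between 35S-AFL1 and wild type. With limma over all 14 arrays, 0 of 18307 genes (0%) had an adjusted p under 0.05 for that difference, the smallest being 0.0839, while 1782 (9.73%) had an unadjusted p under 0.05. Both genotypes' contrasts share slides but no arrays. The 6 genes with a symbol and the lowest p were USPL1, CASP2, JRG21, GASA1, PnsL3 and BZIP61. USPL1 had log2 levels of -1.08, -1.11 and -1.44 on stressed 35S-AFL1 arrays against 0.42, 0.22 and 0.23 on control ones. In wild type it had -0.22, -0.26, -0.26 and -0.24 under stress against 0.14, -0.17, -0.41 and -0.32. It thus fell by 1.50 in 35S-AFL1, and its change of -0.05 in wild type lay within the spread of the arrays (unadjusted p of the difference = 5.86e-06, adjusted p = 0.0839). These values come from the brighter of 2 probes, and the other gave a change of -0.22 in 35S-AFL1.

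CASP2, a protein of the endodermal Casparian strip, rose in 35S-AFL1 with 1.01, 0.89 and 1.32 under stress against -0.39, -0.79 and -0.82. In wild type the same gene had 0.65, 0.11, 0.46 and 0.40 against 0.00, 0.64, 0.35 and 0.32. The changes were 1.74 and 0.08, and the call in 35S-AFL1 ended when the slide was a block (adjusted p = 0.144). JRG21, a jasmonate-regulated oxygenase, changed by 3.89 in 35S-AFL1, with 0.95, 0.72 and 1.01 under stress against -2.85, -3.13 and -3.02 on control medium. Its wild-type change was 2.37, with 0.60, -0.01, 0.18 and -0.15 against -2.03, -2.15, -2.40 and -2.24. GASA1 had 0.60, 0.90 and 0.59 against 5.18, 5.19 and 5.25 in 35S-AFL1, and 1.64, 2.18, 2.35 and 1.56 against 5.10, 4.61, 4.67 and 4.92 in wild type. Its changes were -4.51 and -2.89. For BZIP61 and PnsL3 the stressed 35S-AFL1 arrays were not well above background, so that their changes there are bounds.

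The count of differing responses depended on single wild-type arrays. It was 754 without wild-type low water potential replicate 1 and 43 without wild-type control replicate 1, the arrays that lay on the slides of 35S-AFL1. On these 2 slides alone, with the lone wild-type arrays assumed to vary like the others, 23 genes were called, 18 with a higher and 5 with a lower response in 35S-AFL1. Of the 11592 genes called in 35S-AFL1, 11240 (97.0%) changed in the same direction between the lone wild-type arrays of these slides. Those wild-type arrays differ in slide as well as in treatment, so that this share cannot tell slide from treatment. The share over all genes is not given here. The wild-type levels of LHCB2.3 were -3.11, 1.46, 2.35 and 1.46 under stress against 5.66, 4.34, 4.38 and 4.47 on control medium. The first of each 4 is the array on a slide of 35S-AFL1, and it lay nearer to the 35S-AFL1 arrays of that slide than to the other wild-type arrays.

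The slide block called 15.8% of all genes higher and 20% lower. Further list counts that it moved by over 1.5 times included the following. Homeobox genes had 14 lower, TCP factors 7 lower, MYB genes 13 lower and WRKY factors 7 higher. Brassinosteroid genes had 5 lower, calcium-dependent protein kinases 5 lower, cysteine-rich receptor kinases 8 lower and none higher, and gibberellin genes 2 in each direction. Starch synthesis had 3 lower, sulfate genes 3 higher and 7 lower, cytochrome P450 enzymes 21 lower, and the carbon starvation list none lower. Jasmonate genes had 5 higher, JAZ repressors 2 higher and 1 lower, and proline genes 4 higher and 2 lower. Raffinose, sucrose and invertase genes had 1 lower, listed heat shock factors 1 lower, UDP-glycosyltransferases 5 lower and SAUR genes 7 higher. Endodermis markers had none higher and 1 lower, and their median log2 fold change went from -0.36 to 0.43. NAC genes had 5 lower, and starch breakdown had 2 genes higher.

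**Figure D4:**
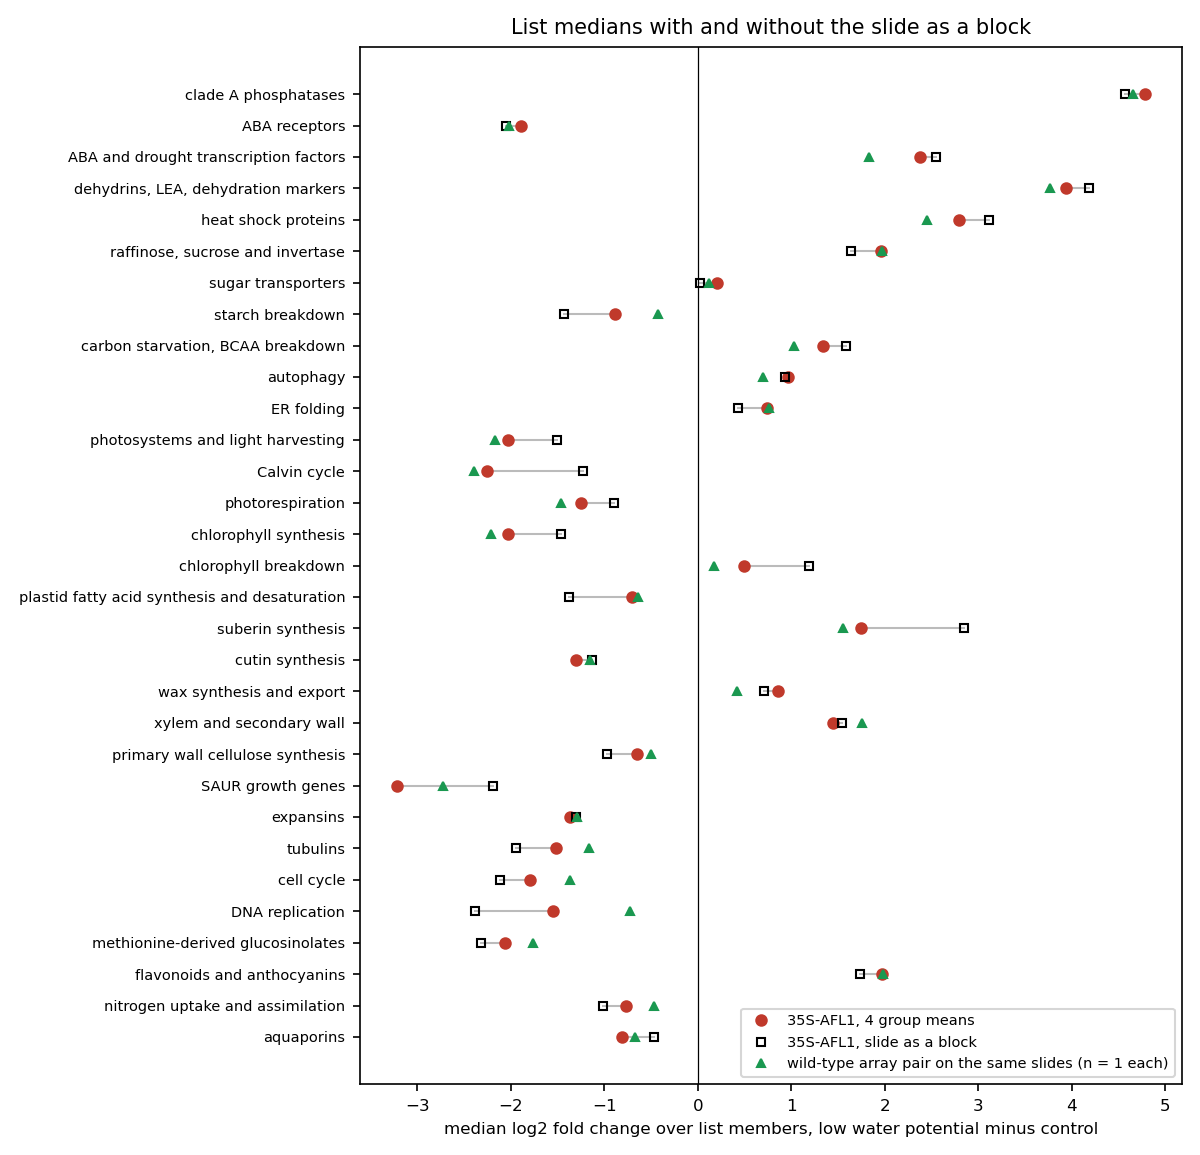
Median log2 fold change (low water potential minus control) of 31 gene lists from the fit of 4 group means (red circles), with the slide as a block (open squares) and between the lone wild-type arrays on the slides of 35S-AFL1 (green triangles, 1 array in each treatment). All 31 medians keep their side of 0 under the slide block; the Calvin cycle median is -1.23 with the block and -2.26 without it, and the suberin median is 2.85 with it and 1.75 without it.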

How the data were processed

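The 14 single-colour Agilent arrays were scanned and extracted with Agilent Feature Extraction 10.7.1.1, per the file headers. The values used are the deposited processed intensities, background-subtracted by that software per the file headers. The deposited table of all samples holds the same values, with a largest relative difference of 5.99e-04. All values of 35S-AFL1 low water potential replicate 1 have at most 3 significant digits, unlike those of the other arrays.

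Each intensity was divided by the array's 75th percentile over non-control spots and taken to log2. Probes well above background on 3 arrays of a group were kept (29098), named through their accessions and RefSeq, and the brightest stood for its gene. One limma 3.58.1 fit (R 4.3.3) of 4 group means to all 14 arrays gave fold changes and Benjamini-Hochberg adjusted p over 18307 genes. The fit was also run on simulated arrays with independent noise and no slide effect, which cannot show how its p-values hold where slides differ. A gene whose probes were all not well above background in a group has only a bound, "at least N-fold", of the brighter group's mean over the lowest signal well above background on each array, or the dim probe's own where higher. Of 5670 genes with several kept probes, 36 had probes called in opposite directions.

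Genes named come from a set picked by fixed rules. It holds the 12 highest and lowest with a symbol, no overlap and a call. It also holds up to 4 called members with the largest change per list or family, plus the largest against its median. The rest are anchors, the 6 lowest p of the difference of responses, and members of runs of neighbours. The results leave out many genes of this set, some with larger changes than the members named from the same list. Members and lists were chosen with earlier results of these data known. The arrays' number limits the precision. Whether equal replicate numbers mark pairs was not settled, and the main fit does not pair them (see the processing alternatives). Alternatives covered slide, scan day, replicate number, background, normalization, filter, probe choice, threshold and leaving out each array. Normexp used the median signals. The plan named mean signals, which were not used here.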

Additional observations from a re-analysis of the deposited data

Results flagged for a closer look

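For the 6 genes whose wild-type arrays are given, the wild-type groups of 4 arrays were checked for an array far from the others, 12 groups in all, and chance flags about 5% of groups. LHCB2.3 was flagged in both. Wild-type low water potential replicate 1 had a log2 level of -3.105, against 1.46 to 2.35 on the other arrays of its group. Wild-type control replicate 1 had 5.661, against 4.34 to 4.47. Both arrays lay on the slides that held the 35S-AFL1 arrays of the same treatment, and the part of the slide in these values was not tested.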

How the results depend on the processing

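In 35S-AFL1 11592 genes were called (5502 higher, 6090 lower), and 6565 with the slide as a fixed block (2900 higher, 3665 lower). That block rests on the wild-type arrays, with its treatment difference from 1 pair of them on another slide, and leaves 6 residual degrees of freedom. Of the calls, 5939 were kept in the same direction and 532 turned sign. Under that block the log2 changes of MYBL2, ATG8E and AT14A reversed to 0.504, 0.239 and 0.324, and the cause was not tested. Of the 175 genes named in the results, 5 others lost their call (PIP2;5, CASP2, SEN1, BT5, FER3). Genes that the naming rules picked but the results leave out are not in this count. Some of them lost their call under that block too, such as GSTU4, BAM6, SNRK2-8 and RR5. The log2 change of GSTU4 went from 6.30 to 0.62. The random block ended the calls of AT14A, ATG8E, MYBL2, SEN1 and FER3, and quantile normalization, leaving out 35S-AFL1 control replicate 1 and leaving out 35S-AFL1 low water potential replicate 1 each ended that of AT14A. With the slide as a random block 9467 genes were called, and without each array in turn 10592 to 12226 (4977 to 5791 higher, 5573 to 6435 lower, 6715 to 6892 of at least 2-fold). The other settings gave 9301 to 13120 calls, all within 1.5 times of the count reported. Of the 85 lists, 8 medians changed sign under the slide block, none of the 59 with a median of at least 0.5 in size, and 1 of those 59 did so without a filter on dim probes and 1 with probes well above background on all 14 arrays. Same-numbered arrays of both treatments had deviations that correlated at 0.148, 0.0212 and 0.0713, and arrays of unlike number at -0.189 to 0.113. With 3 arrays in each group these values cannot settle whether the numbers mark pairs. The replicate block gave 12938 calls. For the difference of responses between the genotypes, where 0 genes were called, 20 were called with the slide as a fixed block, 11 with the arrays of scan day 2 alone, 4 with probes well above background on all 14 arrays and 23 on the slides of 35S-AFL1 alone, a setting chosen after seeing the data. Leaving out each array in turn gave 0 to 754, with 754 without wild-type low water potential replicate 1, 43 without wild-type control replicate 1 and 1 without 35S-AFL1 low water potential replicate 1. Values of dim probes are bounds.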
